A study of Nymphaea colorata and Nymphaea micrantha with 16 samples.

Results

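The unfolding of the floating leaf was followed in the water lily N. colorata, a wild type and nonviviparous species, between stage 3 and stage 4 of leaf development. In L4 the leaves were fully unfolded and lacked the viviparous mark. The L3 leaves were still half-rolled, and only the tip touched the water surface. The comparison uses 4 of the 16 RNA-seq libraries of the series, 2 for L4 and 2 for L3, and 16574 of 31475 genes, those with at least 1 FPKM in at least 2 of these 4 libraries. FPKM are fragments counted on a gene, set against its length and the library's total. Per the study's methods each library is a pool of leaves, leaf nose included, of several plants grown in containers. The methods do not state whether the pools of a stage, or of different stages, came from the same plants. The study describes 3 biological repeats for each stage, and 2 for each are analysed here, so p-values measure the spread between pools. The other libraries are the younger N. colorata leaves (L1 and L2, submerged and rolled) and the same 4 stages of the viviparous N. micrantha (X1 to X4, with a visible viviparous mark in the unfolded leaves of X4).

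A leaf that unfolds passes out of its growing phase. Cell division stops first, primary walls are loosened and then fixed, xylem walls are lignified, the epidermis deposits cutin and waxes, and the chloroplasts fill with the proteins of the photosystems. In a water lily this coincides with the arrival of the blade at the air and in full light. The gene IDs of the table carry no gene names here, so a gene is described by the Gene Ontology (GO) and KEGG terms that the study's tables list it under. These tables cover genes that the study picked as differing between the species in these same libraries, so the lists are not independent evidence, and their members are compared with all genes tested only as a description.

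The 4 libraries held 40159722 and 43101999 reads on genes in L4, against 42545261 and 37118842 reads in L3. Between 15849 and 16339 genes reached 1 FPKM in a library. Replicates correlated with r = 0.98 in both stages (Pearson, across genes on the log2 scale). Within L3 the libraries stood apart in some lists. L3 replicate 2 had more transcript of cell division genes than replicate 1 (3388 against 2114 FPKM summed over the lists of that theme), and less of photosynthesis genes (19341 against 31546 FPKM). Much of the first gap lay in the nucleosome list (2572 against 1494 FPKM), although DNA replication initiation also differed (38.5 against 18.6 FPKM). Much of the second lay in 1 gene with RuBP carboxylase activity, NC7G0247280 (11087 against 19521 FPKM). The values without each library are therefore given where they matter. The leaf identity of the libraries was checked with the chlorophyll binding list, whose 10 members summed to 6417 and 4756 FPKM in L4, against 3002 and 2053 FPKM in L3. The lists for root epidermis and root hair had 0 called genes among 4 members tested each (limma, and 0 by limma voom on the reads). At an unadjusted p under 0.05 (limma) they had 1 and 2 members, against 7635 of all 16574 genes tested. Root epidermis summed to 40.1 and 41.9 FPKM in L4, against 35.3 and 33.2 FPKM in L3. Root hair summed to 46.7 and 51.9 FPKM in L4, against 43.0 and 54.2 FPKM in L3. A lack of calls between the stages does not show whether such tissue was present. Pollen exine had 2 of 9 members lower, meristem identity 2 of 8 higher and phloem 4 of 4 lower.

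Between L3 and L4, 2967 genes were called, 17.9% of those tested. A call needed an adjusted p (limma, Benjamini-Hochberg) below 0.05 together with a change of 1 or more on the log2 scale. Unfolding, leaf age and exposure to air and light go together in this comparison and cannot be told apart. Of the called genes, 1268 rose (7.65% of genes tested) and 1699 fell (10.3%) in L4. Large falls also outnumbered large rises. A log2 fold change of −2 or below was found for 562 called genes, and of 2 or above for 293. Genes that fell had a median of 3.08 FPKM in L4, against 15.6 FPKM in L3. Those that rose had a median of 22.5 FPKM in L4, against 6.10 FPKM in L3. In terms of the transcript pool, the genes that rose took 15.6% and 17.6% of the reads in L4, against 4.68% and 3.90% in L3, while those that fell took 5.09% and 4.04% in L4, against 16.8% and 18.4% in L3. The median log2 fold change over all genes was −0.02. The genes of the lists below were picked by the study, and 36.9% of those tested were called. A total of 27 called genes had at least 10 FPKM in both L4 libraries and less than 1 FPKM in both L3 libraries, and 48 showed the opposite pattern.

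The largest rises came from genes with low values in the half-rolled leaf, at most 9.11 FPKM in an L3 library (NC10G0162940). NC8G0214130 had 2436 and 2711 FPKM in L4, against 0.0911 and 0.313 FPKM in L3 (log2 fold change 11.07 ± 0.19 (SE), adjusted p = 2.66e-08, limma). The L3 values rest on 2 and 6 reads. NC8G0214140, with the next ID, behaved alike, with 599.8 and 718 FPKM in L4, against 0 and 0.104 FPKM in L3, and both were listed at 0 in all X3 and X4 libraries. Whether reads are shared between near-identical copies, or whether N. micrantha reads map less well to these genes, was not tested. NC2G0005110 had 1182 and 3064 FPKM in L4, against 0.0191 and 0.0219 FPKM in L3, where each L3 library held 1 read. NC1G0181620 had 301 and 1409.9 FPKM in L4, against 0 and 0 FPKM in L3, so that it was at least 13170.1-fold higher in L4, counted against a floor of 3 reads per L3 library. Its L4 replicates differed widely, as did those of NC2G0005110, but neither overlapped L3. The remaining rises of this group were NC1G0134400 (log2 fold change 7.88), NC10G0162940 (6.95), NC11G0122550 (6.55) and NC1G0088830 (6.17). NC1G0088830, a gene with sucrose synthase activity, the enzyme that cleaves sucrose into fructose and a UDP sugar, is the only 1 of the 16 genes with the largest rises and falls that carries a term in the study's tables.

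The largest fall was that of NC7G0235050, with 0.26 and 0.181 FPKM in L4, against 315 and 318 FPKM in L3 (log2 fold change −8.02 ± 1.18 (SE), adjusted p = 0.00115, limma). NC12G0189430 followed with 1.98 and 1.45 FPKM in L4, against 417 and 404 FPKM in L3 (log2 fold change −7.25 ± 0.19 (SE), adjusted p = 2.36e-07). NC9G0276610 had 3.49 and 1.63 FPKM in L4, against 318 and 487 FPKM in L3, and its ID neighbour NC9G0276620 had 0.454 and 0.254 FPKM in L4, against 91.7 and 183 FPKM in L3. In all of these, picked by the size of their fall, the L4 and L3 libraries were far apart. NC3G0224320 (log2 fold change −6.76), NC7G0245820 (−6.04), NC13G0194990 (−6.04) and NC2G0033700 (−6.02) completed the group. NC2G0033700 had the least even L4 libraries, at 4.23 and 0.34 FPKM. None of the 8 falling genes has a term, so their function is not known here.

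**Figure D1:**
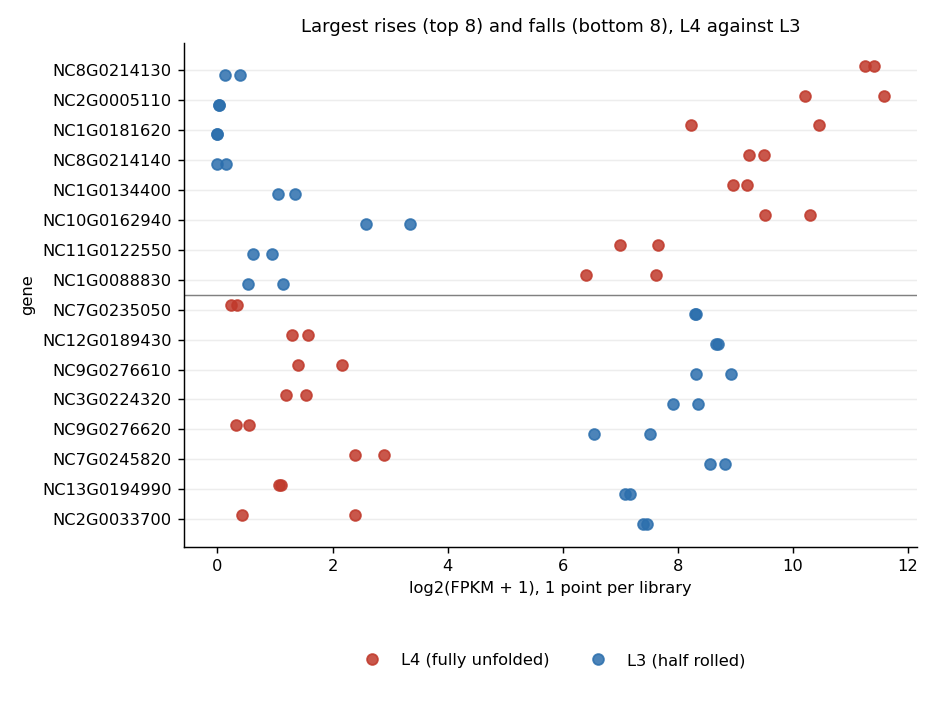
Expression of the 8 genes with the largest rise and the 8 with the largest fall, as log2(FPKM + 1) on the horizontal axis, with 1 point per library (red, L4; blue, L3) and 2 libraries per stage. The L4 and L3 points of every gene are separate, with the L3 points to the left for the rising genes and the L4 points to the left for the falling genes. The genes were picked by the size of their change, so this gap is no added evidence.

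Where genes of the photosynthetic apparatus passed the test, nearly all rose. The lists of this theme held 78 genes that were tested, of which 17 rose and 1 fell, with a median log2 fold change of 0.53. That is 23.1% called, against 17.9% of all genes tested and 36.9% of all listed genes. In the photosystem II list, the complex that splits water and feeds electrons into the chain, 6 of 12 members rose and 0 fell, with a median of 1.19. In light harvesting in photosystem I, which holds chlorophyll-binding antenna proteins, 2 of 8 rose, and the members not called were also above 0, from 0.35 to 1.58 on the log2 scale. The members of this list summed to 5677 and 3864 FPKM in L4, against 2721 and 1829 FPKM in L3. They did not overlap, yet the count was sensitive to single libraries. Without L4 replicate 1 or without L3 replicate 2, 0 of the 8 were called, and the photosystem II count fell to 2 in both cases.

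NC1G0107750, listed under both photosystems, led the theme with 198 and 862 FPKM in L4, against 6.5 and 6.23 FPKM in L3 (log2 fold change 5.81 ± 0.54 (SE), adjusted p = 1.10e-04, limma). Its L4 libraries were uneven, and both lay far above L3. The study also lists this gene under photoprotection, cellular response to heat and regulation of chlorophyll biosynthesis. Its rise therefore need not be that of a photosystem subunit. NC9G0272870, listed under electron transport through photosystem I, had 664 and 541 FPKM in L4, against 43.8 and 11.6 FPKM in L3 (log2 fold change 4.66 ± 0.51 (SE), adjusted p = 2.41e-04), against no more than 9.77 FPKM in any L1 or L2 library. Both thus reached a high level only at the last stage in N. colorata. Among the chlorophyll-binding genes, chosen after their values were seen, NC7G0235150 had 1211 and 1124 FPKM in L4, against 440.2 and 254 FPKM in L3 (adjusted p = 0.00559), and NC3G0227450 had 439 and 319 FPKM in L4, against 190.3 and 107 FPKM in L3 (log2 fold change 1.38, adjusted p = 0.0135). The call of NC3G0227450 was lost without L4 replicate 1 or L3 replicate 2, while that of NC7G0235150 held without any 1 library. NC5G0051170 had 715 and 696 FPKM in L4, against 373 and 148 FPKM in L3 and was not called (log2 fold change 1.58, adjusted p = 0.104). Its L3 libraries differed from each other by more than the L4 libraries did. Photosystem II repair, in which damaged reaction centre protein is removed by proteases, had 4 rising genes of 7, or 2 without either L4 library. The largest changes were those of NC12G0189620, with 109 and 209 FPKM in L4, against 44.5 and 36.5 FPKM in L3, and NC9G0274520, with 182 and 270.1 FPKM in L4, against 74.6 and 64.2 FPKM in L3, both annotated as ATP-dependent metalloendopeptidases and also chosen after their values were seen.

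In the Calvin cycle list, the route by which CO2 is built into sugar, 2 of 13 genes rose and 0 fell (median 0.44), or 15.4% called against 17.9% of all genes. The KEGG list of carbon fixation had 2 of 7 higher and 0 lower, with a median of 0.06. NC10G0045250, annotated as a bridging protein of enzyme complexes and chosen after its values were seen, had 4236 and 4109.7 FPKM in L4, against 1387 and 832 FPKM in L3 (log2 fold change 1.96, adjusted p = 0.00343, limma). The gene with the most transcript in both stages was NC7G0247280, annotated with RuBP carboxylase activity, the CO2-fixing step, with 13168 and 11311 FPKM in L4, against 19521 and 11087 FPKM in L3. This difference did not pass the test (log2 fold change −0.27, adjusted p = 0.78), and the L3 libraries lie on both sides of the L4 values. The oxygen-evolving complex had 0 called genes among 13 (median 0.53), also by limma voom. At an unadjusted p under 0.05 (limma) 4 were higher, as were 3518 of all 16574 genes tested. NC8G0217210, a photorespiration gene binding pyridoxal phosphate, was the only member of the theme that fell, with 1.75 and 1.6 FPKM in L4, against 8.27 and 12.5 FPKM in L3 (log2 fold change −2.06, adjusted p = 1.06e-04).

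Of 88 cell division genes tested 34 fell, 3 rose and 51 were not called, with a median log2 fold change of −0.69. That is 42% called, against 36.9% of all listed genes. The lists of this theme differed among themselves. DNA replication initiation, which loads the replicative helicase on the origins, had 4 of 7 members lower and 0 higher (median −1.09). Nucleosome had 8 of 17 lower, microtubule motor activity (kinesins) 10 of 19 lower and 1 higher, spindle assembly 6 of 13 lower and 2 higher, and mitotic phase transition (cyclins) 4 of 10 lower. DNA replication had 1 of 10 lower (median −0.10), cytokinesis by cell plate formation 1 of 8 and KEGG cell cycle 1 of 8, against 10.3% of all genes. KEGG DNA replication had 0 of 2 called (limma), with 0 at an unadjusted p under 0.05 and 0 by limma voom. The DNA replication list summed to 116 and 95.6 FPKM in L4, against 108 and 156 FPKM in L3, and the motor list to 199 and 113 FPKM in L4, against 133 and 184 FPKM in L3, and in both the stages overlapped. The list of DNA replication initiation summed to 13.2 and 7.2 FPKM in L4, against 18.6 and 38.5 FPKM in L3, with 199 and 263 FPKM in L1 and 159 and 135 FPKM in L2. The nucleosome list summed to 1158 and 1058 FPKM in L4, against 1494 and 2572 FPKM in L3, with 9095 and 11817 FPKM in L1 and 10555 and 14224 FPKM in L2. Most of the decline of the initiation and nucleosome sums thus lay before L3, and L3 replicate 2 still held more of both than replicate 1. Their counts depend on single libraries. Without L3 replicate 2 the theme had 22 falling genes instead of 34, and without L4 replicate 2 it had 18. In the initiation list 0 of 7 were called in either case, the nucleosome list had 5 instead of 8, and the motor list had 5 without L4 replicate 2 instead of 10. In bulk tissue, fewer dividing cells and less transcript per cell cannot be told apart.

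The deepest falls were those of 2 genes listed under nucleosome. NC5G0051050 had 11.9 and 7.73 FPKM in L4, against 59.9 and 376 FPKM in L3 (log2 fold change −3.84 ± 0.69 (SE), adjusted p = 0.00319, limma), and NC10G0145430 had 6.26 and 2.66 FPKM in L4, against 25.3 and 126 FPKM in L3 (log2 fold change −3.49 ± 0.62 (SE), adjusted p = 0.00303). Both L3 replicates exceeded both L4 replicates, although the L3 replicates differed by several fold. Of genes chosen after their values were seen, the motor gene NC10G0043630 had 0.731 and 0.562 FPKM in L4, against 9.46 and 16.7 FPKM in L3 (log2 fold change −3.05, adjusted p = 1.16e-04), and NC8G0213590, a regulator of cyclin-dependent kinases, had 0.494 and 0.5 FPKM in L4, against 6.05 and 15.9 FPKM in L3 (log2 fold change −2.87, adjusted p = 3.89e-04). These 2 calls held in every setting tried. The helicase gene NC1G0181280 had 1.24 and 0.493 FPKM in L4, against 2.54 and 5.8 FPKM in L3 (log2 fold change −1.42, adjusted p = 0.00861), a call lost without L4 replicate 2 or L3 replicate 2. Against this trend, the motor gene NC6G0257440 had 149.8 and 68.5 FPKM in L4, against 22.6 and 20.6 FPKM in L3 (log2 fold change 2.18 ± 0.32 (SE), adjusted p = 0.00118), and NC8G0218640, a gamma-tubulin binding gene listed under spindle assembly and cortical microtubules, had 6.02 and 7.51 FPKM in L4, against 2.09 and 1.33 FPKM in L3, a log2 fold change of 1.52. Ribosomal protein genes showed 0 calls among 37, with a median log2 fold change of −0.39 and members between −0.73 and 0.70. At an unadjusted p under 0.05 (limma), 20 of these 37 were lower in L4 and 1 was higher, against 4117 and 3518 of all 16574 genes tested. Limma voom on the reads also called 0.

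**Figure D2:**
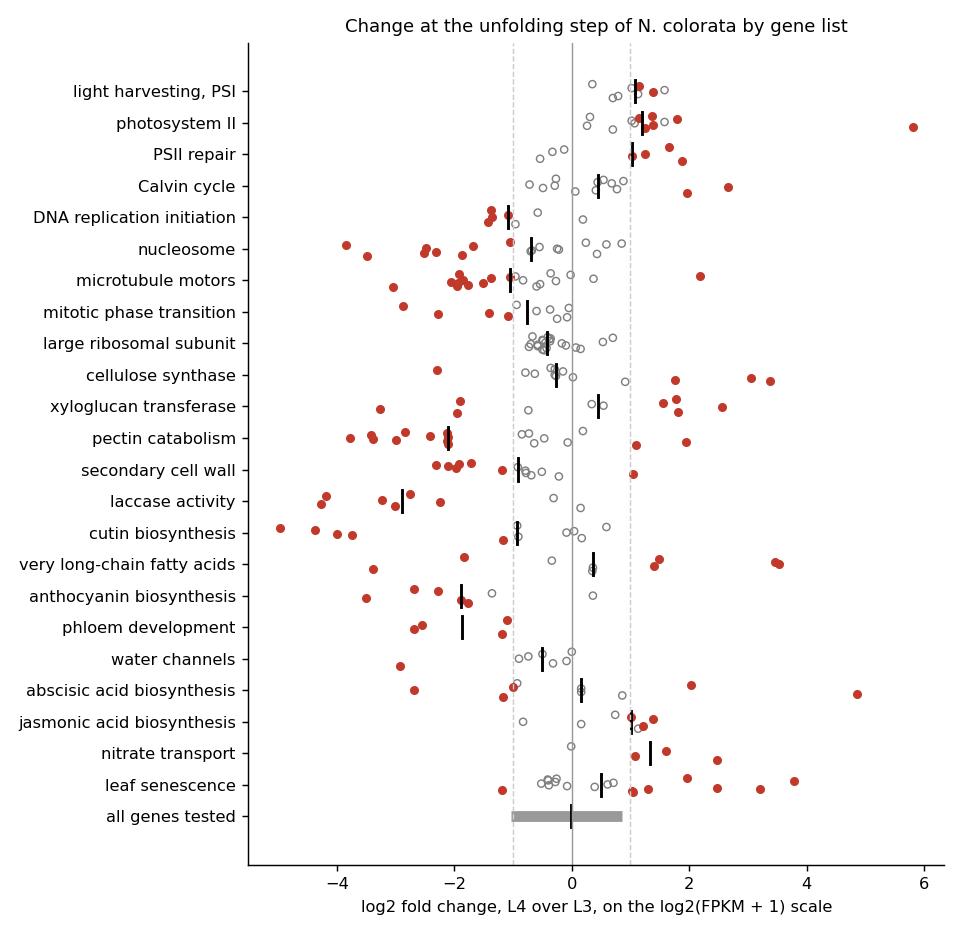
Log2 fold change of L4 over L3 for the tested members of 23 lists, each point 1 gene (red, called; open, not called), with the list's median as a black bar and, for all 16574 genes, the median and the range from the 10th to the 90th percentile in grey. Light harvesting and photosystem II members lie to the right of 0, and nearly all laccase, anthocyanin and phloem members lie to the left.

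Cell wall genes changed in both directions. Of 67 tested, 13 rose and 19 fell, so that 47.8% were called, against 36.9% of all listed genes. Among xyloglucan endotransglucosylases, which cut and rejoin the hemicellulose tethers of the primary wall, 4 of 10 rose and 3 fell. NC3G0226960 had 214 and 143 FPKM in L4, against 35.4 and 23.4 FPKM in L3 (log2 fold change 2.56, adjusted p = 1.48e-04, limma) and NC12G0189050 had 188 and 189 FPKM in L4, against 56.8 and 49.4 FPKM in L3 (log2 fold change 1.81, adjusted p = 6.11e-05). In the other direction, NC3G0203790 had 0.907 and 0.468 FPKM in L4, against 13.4 and 16.9 FPKM in L3 (log2 fold change −3.26, adjusted p = 2.06e-05). These 3 genes were chosen after their values were seen, so the gap between their L4 and L3 libraries is no added evidence. Cellulose synthase activity had 3 of 13 higher and 1 lower. The risers carry IDs in a row, NC11G0118700 with 43.3 and 74.1 FPKM in L4, against 5.07 and 4.03 FPKM in L3 (log2 fold change 3.38 ± 0.26 (SE), adjusted p = 4.51e-05), NC11G0118710 with a log2 fold change of 1.76, and NC11G0118720 with 27.3 and 19.5 FPKM in L4, against 3.99 and 0.691 FPKM in L3 (log2 fold change 3.05 ± 0.44 (SE), adjusted p = 0.00109). The gene that fell, NC5G0158920, is also annotated with mannan synthase activity and had 0.388 and 0.263 FPKM in L4, against 2.68 and 10.5 FPKM in L3 (log2 fold change −2.30, adjusted p = 0.00446).

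Pectin catabolism, the demethylation and cleavage of the wall's gel-forming polysaccharide, was dominated by falls, with 10 of 18 lower, 2 higher and a median log2 fold change of −2.11 (−2.12 with the 1 member at 0 in L4 set at its bound). NC1G0131400, a pectinesterase, had 0.0904 and 0.118 FPKM in L4, against 9.81 and 20.1 FPKM in L3 (log2 fold change −3.77 ± 0.28 (SE), adjusted p = 3.81e-05, limma). NC4G0239210, a pectate lyase, had 0 and 0.0514 FPKM in L4, against 11.4 and 8.74 FPKM in L3 (log2 fold change −3.42 ± 0.19 (SE), adjusted p = 1.08e-05), where the L4 libraries held 0 and 4 reads. Of higher level was the pectate lyase NC12G0187760, chosen after its values were seen, with 9.39 and 9.54 FPKM in L4, against 86.0 and 79.4 FPKM in L3 (log2 fold change −3.00, adjusted p = 3.55e-06). The same list fell in the other species as well, with 11 of 18 members called lower in X4 than in X3, against 6.05% of all genes tested there.

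Of 43 genes for lignified walls 22 fell, 3 rose and 18 were not called (median −1.19). That is 58.1% called, against 36.9% of all listed genes. In laccase activity, copper enzymes that oxidise lignin precursors, 6 of 8 members fell and 0 rose (median −2.88), and this count was 6 without any of the 4 libraries in turn. The other 8 of the 16 listed members did not reach the expression filter. The list summed to 408 and 171 FPKM in L4, against 2035 and 1592 FPKM in L3, after 569 and 462 FPKM in L1 and 687 and 501 FPKM in L2, so the sum was highest in L3 of the 4 stages. Most of it came from NC8G0215020, chosen after its values were seen, with 358 and 143 FPKM in L4, against 1749.7 and 1339 FPKM in L3 (log2 fold change −2.75 ± 0.44 (SE), adjusted p = 0.00183, limma). Its call was lost in the fit of all 16 libraries. NC6G0258560 had 3.97 and 2.58 FPKM in L4, against 79.5 and 71.7 FPKM in L3 (log2 fold change −4.18 ± 0.31 (SE), adjusted p = 4.17e-05), and NC2G0042040 had 0 and 0.0117 FPKM in L4, against 16.5 and 20.7 FPKM in L3 (log2 fold change −4.28 ± 0.27 (SE), adjusted p = 2.05e-05), with 0 and 1 reads in the L4 libraries. NC5G0049910, also chosen after its values were seen, was at 0 in both L4 libraries, against 6.43 and 10.9 FPKM in L3, and was at least 239-fold lower in L4, counted against a floor of 3 reads per library.

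The KEGG list of phenylpropanoid biosynthesis, the route that supplies lignin precursors, had 6 of 10 lower and 1 higher (median −1.47). Of the phenylalanine ammonia-lyases, the entry enzymes, 2 of 3 fell. NC9G0172060, 1 of them and chosen after its values were seen, had 32.6 and 36.0 FPKM in L4, against 149 and 124 FPKM in L3 (log2 fold change −1.96, adjusted p = 7.72e-05, limma). Of the caffeate O-methyltransferases, which methylate lignin precursors, 2 of 3 fell (1 without L4 replicate 2), and NC10G0145170, chosen likewise, had 4.5 and 3.89 FPKM in L4, against 35.3 and 30.3 FPKM in L3 (log2 fold change −2.70, adjusted p = 6.86e-05). Secondary cell wall biogenesis had 6 of 13 lower and 1 higher, and xylem development 3 of 9 lower and 1 higher (median −0.17). The rises of the theme were small. NC1G0132110, listed under xylem development and DNA methylation, had 50.4 and 69.9 FPKM in L4, against 20.7 and 24.4 FPKM in L3, and NC8G0215660, a peroxidase, had 3.02 and 3.57 FPKM in L4, against 0.728 and 1.18 FPKM in L3 (log2 fold change 1.14, adjusted p = 0.0229). The peroxidase call was lost in the fit of all 16 libraries and without L4 replicate 1, L4 replicate 2 or L3 replicate 1 (adjusted p between 0.0668 and 0.209). Phloem development fell in 4 of 4 members (3 of 4 without any 1 of the 4 libraries), led by NC2G0003350 with 10.8 and 8.44 FPKM in L4, against 71.8 and 62.7 FPKM in L3 (log2 fold change −2.69 ± 0.18 (SE), adjusted p = 2.39e-05).

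Of 38 genes of the leaf surface 9 rose (5 without L3 replicate 2) and 11 fell. That is 52.6% called, against 36.9% of all listed genes. In cutin biosynthesis 5 of 11 members fell and 0 rose, with a sum of 72.1 and 78.0 FPKM in L4, against 344 and 363 FPKM in L3. NC5G0048250, a glycerol-3-phosphate acyltransferase of the kind that builds cutin monomers, had 5.96 and 2.45 FPKM in L4, against 162 and 144 FPKM in L3 (log2 fold change −4.97 ± 0.32 (SE), adjusted p = 1.93e-05, limma). NC12G0187130, an oxidoreductase listed under wax, cutin and pollen exine, had 2.26 and 2.23 FPKM in L4, against 37.8 and 47.8 FPKM in L3 (log2 fold change −3.75 ± 0.18 (SE), adjusted p = 5.88e-06). NC12G0094170, a heme-binding gene of the KEGG cutin, suberine and wax pathway, had 4.18 and 2.75 FPKM in L4, against 118 and 81.1 FPKM in L3 (log2 fold change −4.48 ± 0.30 (SE), adjusted p = 2.23e-05). All 3 were picked by the size of their fall and lay far above their L4 level in both L3 libraries. In very long-chain fatty acid biosynthesis 4 of 9 rose and 2 fell. NC2G0034700, a monooxygenase also listed under suberin, had 24.3 and 41.3 FPKM in L4, against 2.3 and 1.43 FPKM in L3 (log2 fold change 3.53 ± 0.28 (SE), adjusted p = 4.93e-05). NC3G0206690, a ketoreductase, had 90.8 and 53.7 FPKM in L4, against 9.06 and 3.08 FPKM in L3 (log2 fold change 3.47 ± 0.40 (SE), adjusted p = 3.21e-04), against at most 0.146 FPKM in L1 and L2.

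Of 23 flavonoid genes, which make pigments and UV screens, 12 fell and 2 rose (median −1.36). That is 60.9% called, against 36.9% of all listed genes. Anthocyanin biosynthesis had 5 of 7 lower, a count that was 5 without any of the 4 libraries. NC2G0036480, which binds ascorbic acid, had 0.315 and 0.0463 FPKM in L4, against 10.8 and 14.1 FPKM in L3 (log2 fold change −3.51 ± 0.23 (SE), adjusted p = 2.22e-05, limma), and NC3G0225970, a flavonoid glucosyltransferase, had 6.46 and 6.09 FPKM in L4, against 51.5 and 67.0 FPKM in L3 (log2 fold change −3.04 ± 0.15 (SE), adjusted p = 7.57e-06). NC9G0147080, a naringenin 3-dioxygenase chosen after its values were seen, had 39.8 and 32.8 FPKM in L4, against 291 and 307 FPKM in L3 (log2 fold change −3.01, adjusted p = 4.15e-05). The entry enzyme ran against this: NC12G0188430, with chalcone synthase activity, rose to 266 and 225 FPKM in L4, against 51.7 and 27.2 FPKM in L3 (log2 fold change 2.67 ± 0.29 (SE), adjusted p = 2.32e-04). NC3G0206030, a second glucosyltransferase, had 6.65 and 5.75 FPKM in L4, against 3.41 and 1.31 FPKM in L3 (log2 fold change 1.17, adjusted p = 0.0135), a call lost without L4 replicate 1, L4 replicate 2 or L3 replicate 2 (adjusted p between 0.0549 and 0.073).

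Hormone genes were split evenly, with 11 of 64 higher and 11 lower. The 34.4% called lay near the 36.9% of all listed genes, against 17.9% of all genes tested. In abscisic acid biosynthesis 2 of 9 rose and 3 fell (1 without L4 replicate 1 or L3 replicate 1). NC12G0097550, a 9-cis-epoxycarotenoid dioxygenase, the enzyme of the committed cleavage step, had 427 and 456 FPKM in L4, against 21.3 and 9.36 FPKM in L3 (log2 fold change 4.86 ± 0.34 (SE), adjusted p = 3.08e-05, limma). It made up most of the summed transcript of the list in L4 (482 and 526 FPKM in L4, against 101 and 78.3 FPKM in L3), and it had no more than 2.15 FPKM in any L1 or L2 library. In cytokinin signalling 1 of 15 rose and 3 fell, with 2 higher without L4 replicate 1 or L3 replicate 2. The riser, NC6G0039670, a histidine phosphotransfer gene of the cytokinin relay, had 82.5 and 139 FPKM in L4, against 6.07 and 4.24 FPKM in L3 (log2 fold change 4.15 ± 0.28 (SE), adjusted p = 2.34e-05). NC11G0244610, listed under gibberellin and cytokinin signalling, had 0.0366 and 0.0341 FPKM in L4, against 7.35 and 5.7 FPKM in L3 (log2 fold change −2.85, adjusted p = 3.19e-05), with 1 read in each L4 library. NC9G0170260, of the KEGG hormone pathway, had 0.654 and 0.0469 FPKM in L4, against 6.17 and 13.1 FPKM in L3 (log2 fold change −2.93, adjusted p = 7.23e-04). Jasmonic acid biosynthesis had 3 of 7 higher and 0 lower, with log2 fold changes of 1.01 to 1.38 for the called genes, but only 1 rose without L4 replicate 1 or L4 replicate 2.

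The auxin genes of the study were read one by one. The auxin response factor NC2G0286500 was at 0.301 and 0.181 FPKM in L4, against 0.55 and 1.27 FPKM in L3 and did not pass the filter. Among the SAUR genes, small auxin-induced transcripts tied to cell expansion, NC14G0174900 had 94.7 and 84.9 FPKM in L4, against 15.6 and 17.9 FPKM in L3 (log2 fold change 2.36 ± 0.14 (SE), adjusted p = 1.68e-05, limma), and NC263970 had 9.12 and 7.37 FPKM in L4, against 0.993 and 1.22 FPKM in L3 (log2 fold change 2.13 ± 0.23 (SE), adjusted p = 2.32e-04). NC9G0168130 went down, with 2.29 and 2.53 FPKM in L4, against 14.8 and 27.0 FPKM in L3 (log2 fold change −2.63 ± 0.25 (SE), adjusted p = 1.12e-04). NC7G0235790 had 19.3 and 18.2 FPKM in L4, against 22.8 and 12.1 FPKM in L3 and was not called (log2 fold change 0.16, adjusted p = 0.673). Members of this family thus rose and fell at the same step.

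Of 29 genes of carbon and nitrogen supply 8 rose and 4 fell, so that 41.4% were called, against 36.9% of all listed genes. Of 3 sucrose synthases tested 2 rose. NC1G0088830 had 83.3 and 195 FPKM in L4, against 1.2 and 0.442 FPKM in L3 (log2 fold change 6.17 ± 0.41 (SE), adjusted p = 2.23e-05, limma), and NC5G0159250, chosen after its values were seen, had 12.6 and 12.8 FPKM in L4, against 4.92 and 4.99 FPKM in L3 (log2 fold change 1.20, adjusted p = 0.00157). Nitrate assimilation had 4 of 10 higher and 1 lower, led by NC8G0216650, an iron-sulfur cluster gene, with 75.8 and 117 FPKM in L4, against 4.8 and 4.52 FPKM in L3 (log2 fold change 4.07 ± 0.22 (SE), adjusted p = 1.05e-05). Nitrate transporters rose in 3 of 4 tested (2 of 4 without L4 replicate 2, L3 replicate 1 or L3 replicate 2). The most abundant of them was not called. NC4G0023930 had 172 and 218 FPKM in L4, against 194 and 197 FPKM in L3 (difference −0.01 ± 0.21 on the log2 scale). NC12G0186170 had 6.74 and 9.98 FPKM in L4, against 0.755 and 0.548 FPKM in L3 (log2 fold change 2.48, adjusted p = 8.35e-05), and both genes were chosen after their values were seen. NC4G0239960, of starch catabolism, went down, with 0.0426 and 0.0454 FPKM in L4, against 2.89 and 2.44 FPKM in L3 (log2 fold change −1.81, adjusted p = 1.91e-04).

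Of 30 stomatal and water transport genes tested 1 rose and 3 fell (median −0.06), so that 13.3% were called, against 17.9% of all genes. In a water lily the stomata lie on the upper side of the blade, which unfolding brings to the air. NC9G0111690, a receptor kinase gene of stomatal closure, had 10.1 and 10.4 FPKM in L4, against 5.33 and 3.81 FPKM in L3 (log2 fold change 1.03, adjusted p = 0.00556, limma), a call lost without L3 replicate 2, where its log2 fold change was 0.83. NC14G0281210, a kinase gene of abscisic acid signalling, had 1.91 and 1.56 FPKM in L4, against 6.98 and 12.7 FPKM in L3 (log2 fold change −1.94, adjusted p = 0.00222). The water channel NC12G0093360 had 4.4 and 2.97 FPKM in L4, against 24.0 and 48.3 FPKM in L3 (log2 fold change −2.92 ± 0.30 (SE), adjusted p = 1.66e-04), while the abundant channel NC7G0292490, chosen after its values were seen, had 620.4 and 623 FPKM in L4, against 526 and 735 FPKM in L3.

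Stress and ageing genes were mixed, with 15 of 66 higher and 8 lower (median 0.39). The 34.8% called lay near the 36.9% of all listed genes, against 17.9% of all genes tested. Leaf senescence had 7 of 18 higher and 1 lower. NC7G0246510, a dioxygenase gene of that list, had 13.3 and 12.7 FPKM in L4, against 0 and 0.0196 FPKM in L3 (log2 fold change 3.79 ± 0.17 (SE), adjusted p = 4.85e-06, limma), with 0 and 1 reads in the L3 libraries. NC8G0099080, a copper-binding gene listed under heat acclimation, had 36.2 and 18.8 FPKM in L4, against 0.0653 and 0 FPKM in L3 (log2 fold change 4.71 ± 0.28 (SE), adjusted p = 1.38e-05), with 3 and 0 reads in L3. Both were at 0 in the L1 and L2 libraries. Glutathione transferases, which conjugate toxic and pigment compounds, had 2 of 12 higher (1 without L4 replicate 2) and 3 lower. NC5G0159930 had 0.073 and 0.136 FPKM in L4, against 12.5 and 10.9 FPKM in L3 (log2 fold change −3.52 ± 0.22 (SE), adjusted p = 1.76e-05), and NC9G0173820 was at 0 in both L4 libraries, against 10.6 and 4.99 FPKM in L3, which made it at least 182-fold lower in L4 against the floor of 3 reads per library. Among the lists for other tissues 2 of 29 rose and 6 fell, so that 27.6% were called, against 36.9% of all listed genes. The risers were NC1G0181520, with 61.9 and 73.9 FPKM in L4, against 19.4 and 28.6 FPKM in L3, and NC4G0237220, with 6.34 and 8.7 FPKM in L4, against 3.45 and 2.98 FPKM in L3, both listed under meristem identity. The call of NC4G0237220 was lost without L4 replicate 2 (log2 fold change 0.80) or L3 replicate 2 (0.92).

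Of the 8 genes among the 5 highest of L4 or of L3, 4 were called and 4, the RuBP carboxylase gene NC7G0247280 among them, were not. NC5G0050660, without a term, had 8582 and 9303 FPKM in L4, against 1806 and 1390.5 FPKM in L3 (log2 fold change 2.49 ± 0.28 (SE), adjusted p = 2.71e-04, limma), and NC2G0004400 had 6824 and 9057 FPKM in L4, against 1314 and 482 FPKM in L3 (log2 fold change 3.30 ± 0.65 (SE), adjusted p = 0.00466). Both joined the 5 highest genes only in L4. NC2G0006920 went the other way, with 2546 and 1599 FPKM in L4, against 7668 and 6559.7 FPKM in L3 (log2 fold change −1.81, adjusted p = 0.00712), though its call was lost without L4 replicate 2 (adjusted p = 0.0945) and with no filter on low values (0.0883). NC11G0302220 had 1899 and 843 FPKM in L4, against 4809 and 6778 FPKM in L3 (log2 fold change −2.17, adjusted p = 0.0459), a call that was lost without any 1 of the 4 libraries (adjusted p between 0.071 and 0.288) and also with a pseudocount of 0.1 (0.0536), with no filter (0.144) and after median-ratio scaling (0.0634). NC3G0227630, NC11G0302260 and NC11G0014860 were not called, with log2 fold changes of 0.61, 0.71 and −1.14.

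**Figure D3:**
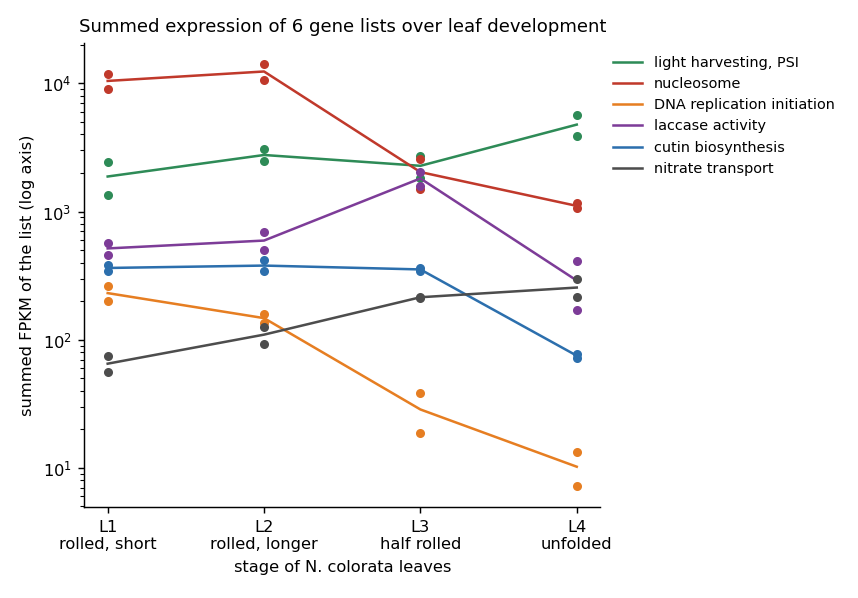
Summed FPKM (log axis) of 6 gene lists over the 4 leaf stages of N. colorata, with 1 point per library and a line through the mean of the 2 libraries. Laccase transcript is highest at L3, and replication initiation and nucleosome transcript is down before L3, while light harvesting transcript is highest at L4.

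To see which of these changes differ from the same step of the viviparous species, the change of L4 over L3 was tested against that of X4 over X3, which shares no library with it. The test covered 14497 genes detected in both species. In this fit 2374 genes (16.4%) were called in N. colorata and 2274 (15.7%) in N. micrantha, where 9.64% rose and 6.05% fell. Of these, 918 were called in both, which is 38.7% of the N. colorata calls and 40.4% of the N. micrantha calls, and 850 of the 918 had the same direction. The steps differed for 2207 genes (15.2%, limma, same thresholds), 692 in the positive direction for N. colorata and 1515 in the negative. These are 4.77% and 10.5% of the genes tested. Rescaling the libraries by median ratios turned this split. It moved the median difference over all genes to −0.05, against −0.30 without it, and gave 1044 positive (7.2%) and 885 negative genes (6.1%), of 1929 called (13.3%). The total also depended on single libraries, with 1433 without L4 replicate 2, 1180 without L3 replicate 2, 1171 without X4 replicate 2, 1465 without X3 replicate 1 and 1204 without X3 replicate 2.

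The step of the light harvesting genes differed between the species. In N. colorata all 8 members of light harvesting in photosystem I were above 0 at unfolding and 2 were called (0 without L4 replicate 1 or L3 replicate 2), while in N. micrantha all 8 were below 0 and 6 were called lower in X4. Of all genes tested, 4.77% were called more positive in N. colorata without scaling and 7.2% with it. The difference was called for 8 of 8 members with and without scaling, with sizes between 1.87 and 3.18 on the log2 scale. Leaving out 1 library at a time gave 5 to 8. The summed transcript was 5677 and 3864 FPKM in L4, against 2721 and 1829 FPKM in L3, and 1962 and 1650.0 FPKM in X4, against 4151 and 4326 FPKM in X3. The sums of neither species overlapped between its stages. NC9G0272870 had a difference of 4.30 ± 0.68 (SE), adjusted p = 0.00207 (limma), from 664 and 541 FPKM in L4, against 43.8 and 11.6 FPKM in L3, and 75.6 and 52.2 FPKM in X4, against 46.0 and 52.1 FPKM in X3.

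Other lists held genes whose step was more negative in N. colorata, as was that of 10.5% of all genes tested (6.1% after scaling). Those described are examples, and anthocyanin biosynthesis (3 of 6) and suberin biosynthesis (4 of 9) also held such genes. In DNA replication initiation 5 of 6 members tested had such a step, also after scaling, with 4 to 6 without single libraries. The list summed to 13.2 and 7.2 FPKM in L4, against 18.6 and 38.5 FPKM in L3, and 31.7 and 38.2 FPKM in X4, against 14.6 and 13.0 FPKM in X3, so that it was higher in the unfolded leaves of N. micrantha only. Microtubule motors had 8 of 12 more negative (6 after scaling, 4 to 8 without single libraries, the lowest without L3 replicate 2). Cutin biosynthesis had 5 of 8 more negative, with and without scaling and without any of the 8 libraries in turn. NC12G0187130 had 2.26 and 2.23 FPKM in L4, against 37.8 and 47.8 FPKM in L3, and 94.7 and 145 FPKM in X4, against 98.4 and 81.8 FPKM in X3, a difference of −4.13 ± 0.41 (SE), adjusted p = 1.82e-04 (limma). For NC5G0048250 the difference was −3.57 ± 0.43 (SE), adjusted p = 4.97e-04. This gene also fell in N. micrantha, by less (log2 fold change −1.41).

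For several of the genes named above, the test found no difference between the species. The laccase NC6G0258560 fell to 0.679 and 1.35 FPKM in X4, against 34.8 and 32.9 FPKM in X3 in N. micrantha, and its steps differed by −0.05 ± 0.52 (SE), adjusted p = 0.957, which did not pass the test. This gene does not stand for the laccase list. Of 6 members tested in both species, 3 had a more negative step in N. colorata, with and without scaling, against 10.5% and 6.1% of all genes tested without and with scaling. In N. micrantha 4 of the 6 were also called lower in X4, against 6.05% of all genes tested there. NC8G0215020, the largest part of the list's sum, had a difference of 2.72 ± 1.41 (SE), which was not called (adjusted p = 0.188, limma). For the cytokinin relay gene NC6G0039670 the difference was 0.38 ± 0.38 (SE), adjusted p = 0.494, and for the 9-cis-epoxycarotenoid dioxygenase NC12G0097550 it was −1.24 ± 0.53 (SE), adjusted p = 0.119. NC1G0181620, among the largest rises of N. colorata, had 5329 and 2700.3 FPKM in X4, against 4.01 and 5.4 FPKM in X3 and a difference of −0.04 ± 0.75 (SE), adjusted p = 0.978. Values that miss the test do not show that the steps are equal.

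**Figure D4:**
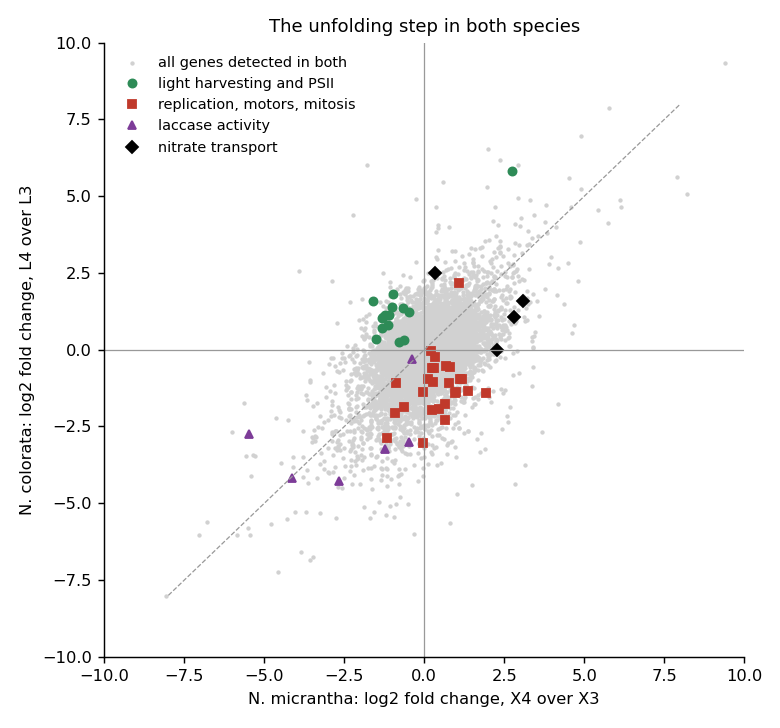
Log2 fold change at the unfolding step in N. colorata (vertical axis, L4 over L3) against that in N. micrantha (horizontal axis, X4 over X3) for 14497 genes detected in both species, with members of 4 groups of lists marked and a dashed line where the steps are equal. Light harvesting members lie above 0 in N. colorata and below 0 in N. micrantha. They share a marker with the photosystem II members, of which NC1G0107750 lies above 0 in both species. Replication initiation, motor and mitosis members lie mostly below the dashed line.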

How the data were processed

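The authors extracted RNA by the CTAB method, prepared poly-A libraries and sequenced them on an Illumina HiSeq instrument. Per the labels, the submitters' processing notes name CASAVA 1.8, fastp 0.20.0, HISAT2 2.1.0, Cufflinks 2.2.1, HTSeq 0.7.2 and DESeq, whereas the methods assign expression from a Bowtie alignment to unigenes, assembled with Trinity. Which alignment gave the deposited values and the genome build are not given in the sources used here. Reads on genes were 40159722 and 43101999 in L4, against 27636196 and 26723284 in X4. In L3 they were 42545261 and 37118842, against 28702202 and 27650265 in X3. The paper, however, lists more cleaned reads for X4 than for L4, and for X3 than for L3. A smaller share of the cleaned reads was thus counted on genes in N. micrantha. Whether this affects its values of 0 or the differences between the species was not tested. The deposited values are FPKM for 31475 genes in 16 libraries, calculated by the authors, and 0 columns were unmapped. FPKM above 0 were whole reads over length and total within a relative tolerance of 1e-06 for 308920 of 308923 values, so depths and reads were recovered (27636196 and 26723284 reads in X4, 28702202 and 27650265 reads in X3).

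Values were tested as log2(FPKM + 1), so fold changes of low genes are understated, with limma 3.58.1 in R 4.3.3 (lmFit, eBayes with trend) in 1 fit of the 8 N. colorata libraries with 4 stage means, for genes reaching 1 FPKM in 2 or more of the 4 libraries compared. The difference between the species was fitted on all 16 libraries. Genes were called at a Benjamini-Hochberg adjusted p under 0.05 over all genes tested with a change of 1 or more in either direction on the log2 scale. Adjusted p-values in the text come from limma. The code was tested on simulated data with known changes.

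A total of 81 lists with 714 genes were taken from complete entries of the study's GO and KEGG tables, and 555 of the genes passed the filter. Of these 36.9% were called, against 17.9% of all genes tested. Named genes were the 8 largest rises and 8 largest falls among called genes, the 2 largest in each direction per theme, the 5 highest genes of L4 and of L3, and the auxin genes printed in the paper, 70 in all, of which 69 were tested. A further 30 genes were chosen after their values were seen, and not all of them are described. For the auxin response factor, the paper's text prints an incomplete ID and that of its pathway table was used. The members, lists and tests were chosen with earlier results of these data known, and no set test was run. Alternatives were other libraries in the fit, pseudocount 0.1, no filter, a filter at 5 FPKM, median-ratio scaling, voom on the recovered reads, a replicate block and leaving out each library, and, chosen after seeing the data, voom with scaling. Calculations used Python 3.11.15, pandas 2.3.3, numpy 2.4.6 and matplotlib 3.10.9. No gene coordinates or sequences were used.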

Additional observations from a re-analysis of the deposited data

Results flagged for a closer look

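The change of L4 over L3 differed from that of X4 over X3 for 2207 genes in the test of the difference itself, and 25 of the 60 named genes tested for it were among them. The differences below are those of N. colorata minus N. micrantha on the log2 scale. After median-ratio scaling 23 of the 25 were still called in the same direction, and 0 of the 25 were called in opposite directions in the 2 species. Of the 918 genes called in both species, 68 had opposite directions. NC9G0274510, listed under anthocyanin biosynthesis and chosen after its values were seen, fell in N. colorata (−2.68) and rose in N. micrantha (3.67). Its difference was −6.34 ± 0.56 (SE), adjusted p = 1.32e-04 (limma).

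The step was more positive in N. colorata for 7 genes. They were NC11G0122550 (4.55), the photosystem I electron transport gene NC9G0272870 (4.30), the sucrose synthase NC1G0088830 (3.80), the nitrate assimilation gene NC8G0216650 (3.65), NC1G0107750 of the photosystem lists (3.06), NC11G0302260 (2.68) and NC10G0162940 (2.05). NC11G0122550, NC1G0088830, NC1G0107750 and NC10G0162940 also rose in N. micrantha, by less. NC11G0302260, among the highest genes of L4, was not called in N. colorata but fell in X4.

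The step was more negative for 18 genes. Those with the largest differences were the nucleosome genes NC10G0145430 (−4.49) and NC5G0051050 (−3.81), the cutin genes NC12G0187130 (−4.13) and NC5G0048250 (−3.57), the water channel NC12G0093360 (−3.55) and the glutathione transferase NC5G0159930 (−3.40). They were followed by NC3G0224320 (−3.27), the mannan synthase gene NC5G0158920 (−2.71), NC12G0189430 (−2.69), the kinase gene NC14G0281210 (−2.37), the anthocyanin gene NC2G0036480 (−2.34), the photorespiration gene NC8G0217210 (−2.29) and the glutathione transferase NC9G0173820 (−2.21). Smaller differences were found for NC12G0094170 of the cutin, suberine and wax pathway (−1.79), the laccase NC2G0042040 (−1.60), the starch catabolism gene NC4G0239960 (−1.53), the meristem gene NC4G0237220 (−1.49) and the pectinesterase NC1G0131400 (−1.31). NC12G0189430, NC3G0224320, NC12G0094170, NC2G0042040, NC1G0131400, NC5G0048250 and NC2G0036480 were also called lower in X4 than in X3, by less than in N. colorata. NC4G0237220 rose in both species and by more in N. micrantha.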

How the results depend on the processing

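The count of called genes (2967) stayed within 1.5 times under every alternative, from 2248 with a filter at 5 FPKM to 3424 with voom and scaling, the last chosen after seeing the data. Without single libraries it ranged from 2397 to 3202, with 1020 to 1372 higher and 1377 to 1830 lower genes. Of the 2967 calls, 75.7% (filter at 5 FPKM) to 99.6% (replicate block) were kept in the same direction. Deviations of same-numbered libraries correlated with r = 0.07 between L4 and L3 and 0.05 between X4 and X3, and with −0.17 to 0.48 over all group pairs compared. Not every pair was above 0.1, so the numbers were not taken to pair the samples. The fit with the replicate block called 2980 genes and 2065 differences between the species. Median-ratio scaling left 154 of 162 list counts unchanged. For the difference between the species it gave 1044 more positive and 885 more negative genes, against 692 and 1515, and without single libraries the total ranged from 1171 to 2083, the positive from 281 to 674 and the negative from 889 to 1409. Of single genes, NC7G0247280 was at 0.14 without L3 replicate 1 (−0.27 with all libraries, lowest −0.68 without L3 replicate 2) and NC7G0235790 at −0.27 without L3 replicate 2 (0.16 with all libraries, highest 0.59 without L3 replicate 1), and neither was called. Each stage had 2 libraries, which limits the precision of every value.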
